A study of Rattus norvegicus with 172 samples.

Results

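Hepcidin, the liver peptide that sets how much iron enters the blood, is made from Hamp. The genes described here are Hamp and 9 others by which the liver senses, takes up, carries and releases iron: Bmp6, Id1, Hfe, Tfr2, Tfrc, Slc40a1, Slc11a2, Tf and Cp. They were chosen by name and function with earlier results of these data known, and were found by their Ensembl ID. They are 10 of the 32883 genes in each of the 2 count tables. Of the 10, 9 were tested in both experiments and 1 was not: Slc40a1, which encodes the iron exporter ferroportin, held 3 counts over 38 furan rats and 5 over 32 3-methylfuran rats. Its symbol stood in 1 of the 2 deposited comparison tables, and so small a count is not read here as absence of its mRNA.

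The livers came from 70 male Fischer 344 rats exposed for 90 days through diets to furan, a small ring compound that forms in heated food, or to 3-methylfuran, which carries a methyl group on that ring. Furan was given each day at 0.03 (n = 8), 0.12 (n = 8), 0.5 (n = 7) or 2.0 (n = 7) mg/kg body weight, against 8 control rats at dose 0. 3-Methylfuran was given at daily doses of 0.02, 0.075 and 1.0 mg/kg, against its own 8 controls at dose 0 (n = 8 each). Whole frozen liver was used, so fewer cells of a type and less RNA per cell cannot be told apart. The compounds were tested in separate experiments with different library kits and at different doses, so their values stand side by side and were not compared by a test. Levels are CPM, counts scaled to a common library size, with TMM, a method that aligns the bulk of genes between libraries. Gene lengths were not available, so levels are compared between rats and never between genes.

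Hepatocytes read iron in the blood through transferrin, the iron carrier, which binds the receptors Tfr2 and Tfrc. They also receive BMP6 from sinusoidal endothelial cells, and Hfe, Tfr2 and the co-receptor hemojuvelin feed into the same BMP receptor and SMAD route, which switches on Hamp and feedback genes such as Id1. Inflammation raises Hamp through IL-6 and STAT3. In human and mouse the Hamp promoter carries known elements for both routes, and the rat sequence is shown with that of Id1 because these BMP targets moved in opposite directions at the highest doses. Both sequences are from RefSeq (GRCr8, later than the Rnor_6.0 build behind the counts) and hold the 250 bases before the gene's start, Hamp at chr1:95300272-95300521 on the minus strand and Id1 at chr3:161671314-161671563 on the plus strand. Capitals mark GGCGCC and TTCNNNGAA in Hamp, and GCTAAGTCA, which is TGACNNNGC read on the other strand, in Id1.
Hamp: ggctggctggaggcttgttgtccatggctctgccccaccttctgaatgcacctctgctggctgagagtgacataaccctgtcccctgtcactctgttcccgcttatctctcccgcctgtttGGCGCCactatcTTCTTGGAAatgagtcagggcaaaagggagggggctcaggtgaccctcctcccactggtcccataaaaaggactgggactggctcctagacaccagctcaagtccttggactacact
Id1: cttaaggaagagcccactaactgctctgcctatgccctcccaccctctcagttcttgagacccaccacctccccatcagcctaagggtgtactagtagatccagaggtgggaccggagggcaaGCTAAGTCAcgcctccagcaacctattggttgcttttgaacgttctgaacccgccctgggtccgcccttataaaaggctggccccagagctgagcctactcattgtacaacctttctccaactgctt
In Hamp, GGCGCC, the core of the BMP-responsive element, began at -129 from the start, and TTCNNNGAA, the STAT site, at -117. In Id1, TGACNNNGC, the core of the antioxidant response element, was found at -127 and GGCGCC was not found. On either strand of the 300-base RefSeq windows, which run on past the start, GGCGCC was found in 11.02% of all 33469 windows, TTCNNNGAA in 8.87% and TGACNNNGC in 12.1%. Of the 9 genes of the group with a window, GGCGCC was found in Hamp and Tfrc, TTCNNNGAA in Hamp and TGACNNNGC in Id1, while the E-box CACGTG (6.42% of all windows) was found in 0. Among the 7 genes with a window in the list of BMP-responsive genes described further below, GGCGCC was found in 4. These included Bambi, which rose at the highest doses, and Id4, which fell, while Atoh8, which fell, had no match. Bases further upstream than the windows were not searched. Such matches are letters in a window and do not show that a factor binds there. Whether they bear on the direction of change was not tested.

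Hamp fell at the highest dose of each compound. In furan 2.0 livers the lowest, median and highest rats had 191, 206 and 388 CPM, against 424, 572 and 1036.5 CPM in furan controls. All 7 furan 2.0 rats therefore lay below the lowest control rat. The mean was 236 ± 72.6 CPM in furan 2.0 rats (SD, n = 7) and 618 ± 199 CPM in furan controls (SD, n = 8), which is 38.2% of the control level in the fit (log2 fold change -1.39 ± 0.21 SE, edgeR quasi-likelihood adjusted p = 2.06e-06). In 3-methylfuran 1.0 livers the lowest, median and highest rats had 144, 183 and 475 CPM, against 346, 453 and 731 CPM in their controls. Below the lowest control lay 7 of 8 3-methylfuran 1.0 rats, and rat ME587L, at 475 CPM, lay above the control median. The mean was 221 ± 107 CPM in 3-methylfuran 1.0 rats and 487 ± 125 CPM in their controls (SD, n = 8 each), or 45.3% of the control level (log2 fold change -1.14 ± 0.27 SE, edgeR adjusted p = 0.00118). In the authors' deposited table for furan, the signed fold change of Hamp at 2.0 was -2.53 (adjusted p = 1.51e-10). In the authors' deposited table for 3-methylfuran, the ratio at 1.0 was 0.504 (adjusted p = 0.000612).

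**Figure D1:**
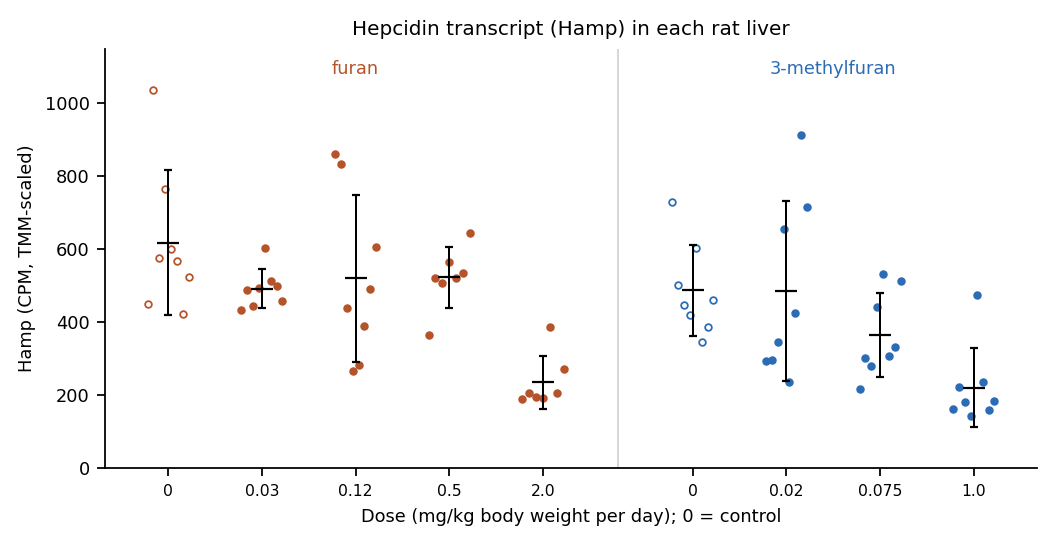
Hamp level of each rat (CPM after TMM scaling) by dose group in mg/kg body weight per day, furan on the left and 3-methylfuran on the right, with the dose rising from the control (open points); points are rats, wide bars the group mean and error bars 1 SD. The 7 furan 2.0 rats lie between 191 and 388 CPM, all below their controls, and 7 of 8 3-methylfuran 1.0 rats lie below theirs.

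At the lower doses Hamp did not pass the test. Along the furan series the mean level was 618 ± 199 CPM in controls, 492 ± 53.5 at 0.03, 521.03 ± 229 at 0.12, 523 ± 83.1 at 0.5 and 236 ± 72.6 CPM at 2.0 (SD). Along the 3-methylfuran series it was 487 ± 125 CPM in controls, 485 ± 246 at 0.02, 366 ± 116 at 0.075 and 221 ± 107 CPM at 1.0 (SD). The order was thus not monotonic for furan, whose 3 lower doses lay close together and under the control mean. The log2 fold changes against controls were -0.33 ± 0.20 at 0.03, -0.25 ± 0.20 at 0.12 and -0.24 ± 0.21 at 0.5 for furan (SE, edgeR adjusted p = 0.658, 0.647 and 0.592). Without control rat MC004_L, the highest at 1036.5 CPM, they were -0.18, -0.10 and -0.09. For 3-methylfuran they were -0.01 ± 0.27 at 0.02 and -0.41 ± 0.27 at 0.075 (adjusted p = 1.0 and 0.540). At 3-methylfuran 0.075, 5 of 8 rats lay below the lowest control, with a median of 321 CPM. Between neighbouring doses, Hamp differed at the top step of each series, by -1.15 ± 0.22 on the log2 scale for furan 2.0 against 0.5 (edgeR adjusted p = 0.000108) and by -0.73 ± 0.27 for 3-methylfuran 1.0 against 0.075 (adjusted p = 0.0377). The lower neighbours did not differ past the threshold for any member (share of all genes called: 0.0707% for furan 0.12 against 0.03, 0% for 0.5 against 0.12 and 0.0335% for 3-methylfuran 0.075 against 0.02).

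The spread of Hamp between rats of one group differed from group to group. Among controls its coefficient of variation was 32.1% for furan and 25.7% for 3-methylfuran, beside 21.8% and 18.1% for Tfrc, 5.14% and 11.5% for Tfr2 and 7.61% and 6.57% for Slc11a2. At furan 0.03 it was 10.9%, below the 28.8% of Tfrc. At 3-methylfuran 0.02 it reached 50.6%, with rats from 237 to 914 CPM, and at furan 0.12 it was 43.9%, with rats from 266 to 860 CPM. A single rat held the highest value at each top dose. Without rat ME086_L the furan 2.0 change was -1.55, and without rat ME587L the 3-methylfuran 1.0 change was -1.40 (log2).

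Over the whole group of genes, 8 of the 9 tested were called at each top dose (edgeR adjusted p under 0.05 over all genes). At furan 2.0, 2 were higher and 6 lower, in a comparison where 46.5% of 12727 tested genes were called, 24% higher and 22.5% lower. At 3-methylfuran 1.0, 2 were again higher and 6 lower, where 43.6% of 11930 tested genes were called, 21.2% higher and 22.5% lower. Id1 and Tfrc were the genes that rose with each compound, Hamp, Hfe, Tfr2, Slc11a2, Tf and Cp fell, and Bmp6 passed with neither. The median log2 fold change of the tested members was -0.41 at furan 2.0, beside 0.02 over all genes, and -0.30 at 3-methylfuran 1.0, beside -0.00 over all genes. Ranges of dosed and control rats did not overlap for Hamp and Slc11a2 at furan 2.0, both lower, where 5.57% of all genes had every dosed rat below every control. The same held for Tfr2 at 3-methylfuran 1.0, where the share over all genes was 6.08%.

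These directions rest in part on the scaling. TMM factors ran from 1.02 to 1.40 in furan 2.0 rats and from 1.05 to 1.23 in 3-methylfuran 1.0 rats, against 0.894 to 0.964 and 0.919 to 0.974 in their controls. With scaling to library size only, the median of all genes moved to 0.42 at furan 2.0 and 0.25 at 3-methylfuran 1.0 (log2), and 91.8% and 86.8% of the called genes were higher, beside 51.6% and 48.5% with TMM. At furan 2.0, 8678 of 12727 tested genes were then called higher and 773 lower. At 3-methylfuran 1.0, 6081 of 11930 were called higher and 923 lower. Counts on library size given further below are to be read beside these numbers. On that scale Hamp (-1.02 and -0.90) and Tfr2 (-0.17 and -0.19) were still lower and Id1 (1.44 and 0.88) and Tfrc (0.77 and 0.63) still higher, and all of these passed the edgeR test. Hfe (-0.03 and -0.05), Tf (-0.05 and 0.09), Cp (-0.12 and -0.14) and Slc11a2 (0.05 and 0.02) did not pass on that scale at furan 2.0 or 3-methylfuran 1.0, so their falls are falls relative to the bulk of genes. DESeq2 size factors gave the same calls as TMM for the members at both doses.

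A comparison that uses no library scaling sets each gene against hepatocyte mRNAs of the same rat, as the log2 count minus the mean log2 count of 11 hepatocyte markers. For Hamp this was -4.02 ± 0.27 in furan 2.0 rats (n = 7) and -3.03 ± 0.40 in controls (n = 8), with 7 of 7 dosed rats below the lowest control (SD, exact permutation test, two-sided p = 0.000311). It was -4.38 ± 0.54 in 3-methylfuran 1.0 rats and -3.33 ± 0.36 in controls (n = 8 each), with 7 of 8 dosed rats below the lowest control (exact permutation test, two-sided p = 0.00124). Hamp mRNA was thus lower relative to these markers, by 0.99 and 1.05 on the log2 scale. The markers are not a fixed reference, since single ones moved with dose in either direction, such as Apoa1 (0.85 at furan 2.0 and 1.13 at 3-methylfuran 1.0) and Apoc3 (-1.09 and -0.97, log2 with TMM). Described without a test, the other members differed on this measure as follows, with furan 2.0 before 3-methylfuran 1.0. Id1 was higher by 1.30 and 0.69 and Tfrc by 0.79 and 0.53, with 6 of 7 and 4 of 8 dosed rats above every control for Tfrc. Tfr2 differed by -0.17 and -0.28, with 6 of 7 and 6 of 8 dosed rats below every control, and Cp by -0.12 and -0.25, with 3 of 7 and 6 of 8 below. Tf differed by -0.05 and -0.01, Hfe by -0.02 and -0.15, Slc11a2 by 0.06 and -0.07 and Bmp6 by 0.66 and -0.20.

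**Figure D2:**
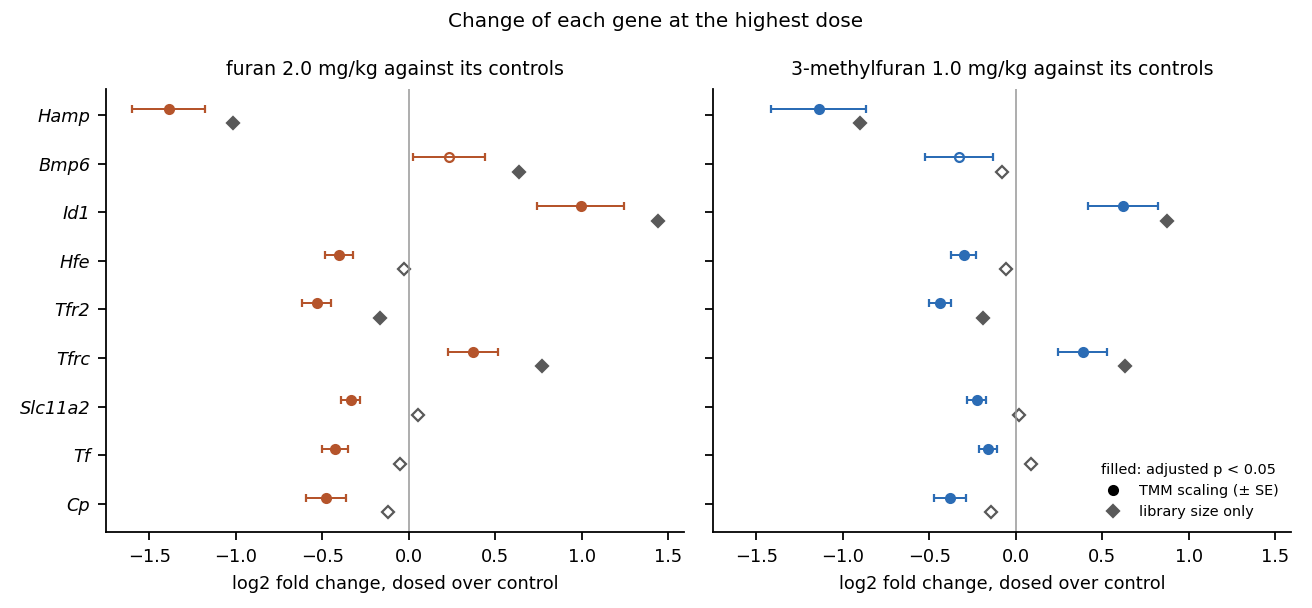
Log2 fold change over controls of the 9 tested genes (rows) at furan 2.0 (left) and 3-methylfuran 1.0 (right), as circles with bars of 1 SE for TMM scaling and diamonds for library size only, filled where the edgeR adjusted p was under 0.05. With TMM, Id1 and Tfrc lie right of 0 and Hamp, Hfe, Tfr2, Slc11a2, Tf and Cp left of it; with library size only, the diamonds of Hfe, Slc11a2, Tf and Cp lie near 0 and are open.

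The ligand Bmp6 did not pass the test at any dose. In furan 2.0 rats the lowest, median and highest values were 2.04, 2.29 and 3.63 CPM, against 1.24, 2.33 and 2.87 CPM in controls (log2 fold change 0.23 ± 0.21 SE, edgeR adjusted p = 0.379). In 3-methylfuran 1.0 rats they were 0.574, 0.701 and 1.29 CPM, against 0.560, 1.10 and 1.34 CPM in controls (-0.33 ± 0.20 SE, adjusted p = 0.179). The ranges overlapped with each compound and the estimates had opposite signs. Few reads lie behind them: rats held 37 to 84 counts at furan 2.0 and 18 to 49 in controls, and 10 to 27 counts at 3-methylfuran 1.0 and 6 to 18 in controls. Scaled to library size only, the furan 2.0 estimate was 0.64 and passed.

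Id1, which encodes an inhibitor of DNA binding and is a textbook BMP-SMAD target, moved opposite to Hamp. In furan 2.0 rats it had 1.99, 3.12 and 6.69 CPM at the lowest, median and highest, against 1.15, 1.77 and 2.81 CPM in controls. Every furan 2.0 rat lay above the control mean and 4 of 7 above the highest control. The log2 fold change was 0.99 ± 0.25 SE (edgeR adjusted p = 0.00131). In 3-methylfuran 1.0 rats the values were 1.11, 1.98 and 3.36 CPM, against 0.863, 1.23 and 1.86 CPM in controls, with 5 of 8 dosed rats above the highest control (0.62 ± 0.20 SE, adjusted p = 0.0125). At the 5 lower doses its estimates lay between -0.30 and 0.23 and did not pass.

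Hfe and Tfr2, the membrane proteins by which hepatocytes sense iron-loaded transferrin, were both lower. Hfe had 24.8, 30.2 and 35.8 CPM in furan 2.0 rats, against 34.9, 40.6 and 45.9 CPM in controls (log2 fold change -0.41 ± 0.08 SE, edgeR adjusted p = 8.87e-05). In 3-methylfuran 1.0 rats it had 26.9, 29.95 and 38.4 CPM, against 33.6, 37.8 and 41.6 CPM in controls (-0.30 ± 0.07 SE, adjusted p = 0.000842). With furan 5 of 7 and with 3-methylfuran 7 of 8 dosed rats lay below the lowest control. Tfr2 had 192, 233 and 358 CPM in furan 2.0 rats, against 345, 375 and 397 CPM in controls, and 6 of 7 lay below the lowest control (-0.53 ± 0.08 SE, adjusted p = 2.91e-06). At 3-methylfuran 1.0 it had 218, 260 and 282 CPM, against 285, 333 and 402 CPM in controls, so that all 8 dosed rats lay below (-0.44 ± 0.06 SE, adjusted p = 6.48e-07). Tfr2 was the member with the smallest adjusted p in that comparison. At furan 0.5, 6 of 7 rats had less Tfr2 than the lowest control, at 300, 334 and 348 CPM, but the change of -0.18 did not pass (adjusted p = 0.260). On library size only that change was -0.11 and did not pass either (edgeR adjusted p = 0.290).

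Tfrc, the transferrin receptor that takes iron into most cells and whose mRNA is stabilised when cell iron is low, was higher. It had 80.4, 89.2 and 99.9 CPM in furan 2.0 rats, against 47.7, 69.8 and 93.5 CPM in controls, a range that overlapped (log2 fold change 0.37 ± 0.14 SE, edgeR adjusted p = 0.0329). At 3-methylfuran 1.0 it had 51.0, 61.5 and 99.4 CPM, against 33.6, 53.2 and 62.03 CPM in controls, with 4 of 8 above the highest control (0.39 ± 0.14 SE, adjusted p = 0.0282). Of the calls at the top doses, this was the one that leaving out single rats undid. It was lost when furan 2.0 rat ME089_L or any of control rats MC008_L, MC010_L, MC011_L and MC012_L was left out (adjusted p up to 0.0825), and when 3-methylfuran 1.0 rat ME587L or ME590L or control rat MC503L or MC510L was left out (up to 0.0927).

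**Figure D3:**
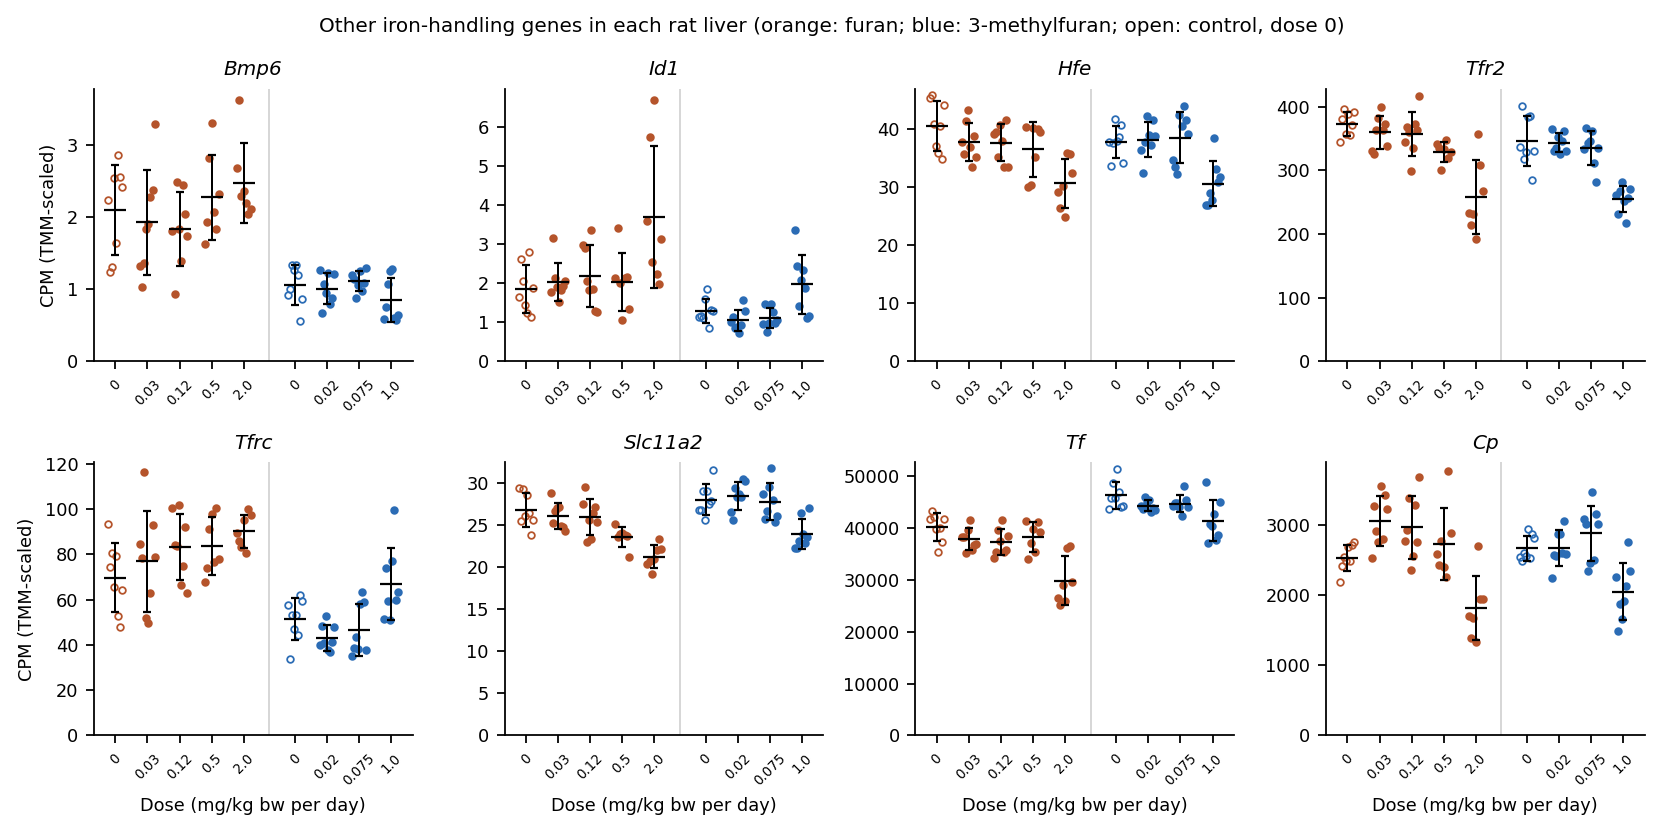
Level of each tested gene in every rat (CPM after TMM scaling) except Hamp, one panel per gene, with dose groups in mg/kg body weight per day in order from the control (open points), furan on the left and 3-methylfuran on the right; wide bars are group means and error bars 1 SD. In the top dose groups, Id1 and Tfrc lie high and Hfe, Tfr2, Slc11a2, Tf and Cp lie low beside their controls, and all 7 furan 2.0 rats lie below the controls in Slc11a2.

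Slc11a2, which encodes DMT1, the transporter that moves iron out of endosomes, changed little but with little spread. It had 19.2, 20.96 and 23.4 CPM in furan 2.0 rats, against 23.8, 26.2 and 29.4 CPM in controls, without overlap (log2 fold change -0.34 ± 0.05 SE, edgeR adjusted p = 3.74e-06). With 3-methylfuran 1.0 it had 22.3, 23.3 and 27.04 CPM, against 25.6, 27.6 and 31.6 CPM in controls (-0.23 ± 0.06 SE, adjusted p = 0.000986). It was also the member nearest to a call below the top dose: at furan 0.5 all 7 rats lay below the control mean, at 21.2, 23.8 and 25.1 CPM, and the change was -0.18 ± 0.05 SE (adjusted p = 0.0517). That value passed in 3 of 8 alternative fits: with DESeq2 size factors, with run 2 alone and with DESeq2. On library size only it was -0.12 and did not pass (edgeR adjusted p = 0.338). Slc11a2 was called in 3 of 15 fits that left out 1 rat (adjusted p between 0.0297 and 0.127). In the authors' deposited table its signed fold change at furan 0.5 was -1.11 with an adjusted p of 0.0348.

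Tf and Cp encode the secreted proteins that carry iron and, as the copper-bound ferroxidase ceruloplasmin, oxidise it for loading onto transferrin. Tf had 25200, 29070 and 36548 CPM in furan 2.0 rats, against 35331, 40782 and 43319 CPM in controls, with 5 of 7 below the lowest control (log2 fold change -0.43 ± 0.07 SE, edgeR adjusted p = 1.06e-05). With 3-methylfuran 1.0 it had 37161, 40646 and 48947 CPM, against 43728, 45842 and 51323 CPM in controls (-0.16 ± 0.05 SE, adjusted p = 0.0148). This call was lost with either of runs 1 and 2 alone and in a fit of only these groups (adjusted p 0.0505 to 0.0851).

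Cp had 1337, 1710 and 2710 CPM in furan 2.0 rats, against 2191, 2521 and 2760 CPM in controls, and 6 of 7 lay below the lowest control (log2 fold change -0.48 ± 0.12 SE, edgeR adjusted p = 0.000808). Rats at 3-methylfuran 1.0 had 1484, 2025 and 2755 CPM, against 2494, 2581 and 2949 CPM in controls, with 7 of 8 below the lowest (-0.38 ± 0.09 SE, adjusted p = 0.00106). At furan 0.03 and 0.12 most values lay on the other side of the controls. Of 8 rats each, 7 at 0.03 (2538, 3070 and 3553 CPM) and 6 at 0.12 (2356, 2854 and 3690 CPM) lay above the highest control. The changes of 0.27 ± 0.11 and 0.23 ± 0.11 SE did not pass (adjusted p = 0.444 and 0.358, unadjusted p = 0.0197 and 0.0497). At furan 0.5 (2262, 2584 and 3774 CPM) the median lay within the control range and 3 of 7 rats lay above the highest control. The change there was 0.11 ± 0.12 SE (edgeR adjusted p = 0.689). Cp differed between furan 2.0 and 0.5 by -0.59 and between 3-methylfuran 1.0 and 0.075 by -0.49 (log2), and both steps passed.

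At the lower doses 0 of the 9 tested members were called, where the share of all genes called was 0.0707% at furan 0.03, 1.94% at 0.12 and 3.16% at 0.5, and 0.0335% at 3-methylfuran 0.02 and 1.37% at 0.075 (edgeR). Members with an unadjusted p under 0.05 were Cp at furan 0.03 and 0.12 and Tfr2 and Slc11a2 at furan 0.5, in comparisons where 9.13%, 13.9% and 17.1% of all genes had one. Between furan 2.0 and 0.5, where 32.2% of all genes were called, 1 member was higher (Id1) and 6 lower. Tfrc, at 0.26 over controls at furan 0.5 without passing, did not pass in this step either (log2 difference 0.11, adjusted p = 0.614). Between 3-methylfuran 1.0 and 0.075, where 34.9% of all genes were called, Id1 and Tfrc were higher and 5 members lower, and Tf did not pass (adjusted p = 0.114). As a linear trend over dose, Hamp changed by -0.62 ± 0.10 per mg/kg of furan and by -1.06 ± 0.24 per mg/kg of 3-methylfuran (log2, SE, edgeR adjusted p = 1.64e-06 and 0.000499). Trends passed for 7 of 9 tested members with furan and 8 of 9 with 3-methylfuran, beside 52% and 48% of all genes, and Bmp6 passed with neither. These trends used TMM. On library size only, the furan trends of Bmp6 (0.37 per mg/kg) and Tfrc (0.32) passed (edgeR adjusted p = 0.000307 and 1.68e-05), while those of Hfe, Slc11a2 and Tf did not.

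Other genes of the BMP route were read from lists chosen for their function, also with earlier results of these data known. Of 7 tested BMP-responsive genes other than Hamp and Id1, 1 was higher and 4 lower at furan 2.0, and 1 was higher and 5 lower at 3-methylfuran 1.0, with median log2 fold changes of -0.52 and -0.53 beside 0.02 and -0.00 over all genes. Over all genes, 24% were called higher and 22.5% lower at furan 2.0, and 21.2% and 22.5% at 3-methylfuran 1.0. Id4, a relative of Id1, fell by 1.24 ± 0.19 and by 0.86 ± 0.17, and Atoh8, a transcription factor that acts on the Hamp promoter, fell by 0.76 ± 0.11 and by 0.53 ± 0.10 (log2, SE). Smad6, an inhibitor of the route, fell by 0.52 and by 0.89, while Bambi, a decoy receptor, rose by 1.02 ± 0.19 and by 0.54 ± 0.21. With library size only, Id4 and Atoh8 were still called lower with each compound and Smad6 with 3-methylfuran but not with furan, and the list had 2 higher and 2 lower at furan 2.0 and 1 higher and 4 lower at 3-methylfuran 1.0. Id1 and Bambi thus stood on the other side of 0 from Id4, Atoh8 and Hamp.

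**Figure D4:**
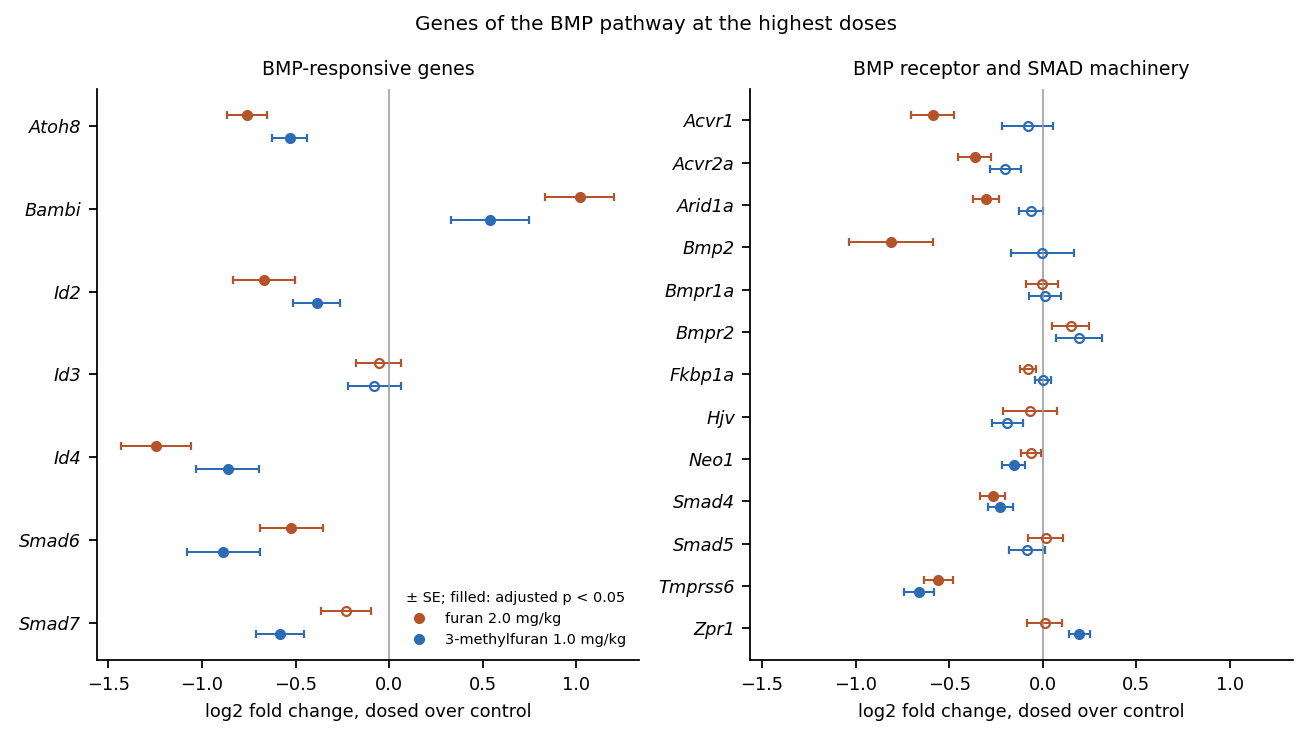
Log2 fold change over controls, with bars of 1 SE, of the tested BMP-responsive genes (left) and receptor and SMAD genes (right) at furan 2.0 (orange) and 3-methylfuran 1.0 (blue) with TMM scaling, filled where the edgeR adjusted p was under 0.05. Id4, Atoh8 and Tmprss6 lie left of 0 and Bambi right of it with each compound.

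Among 13 tested receptor and SMAD genes, 0 were higher and 6 lower at furan 2.0, and 1 was higher and 3 lower at 3-methylfuran 1.0, with a median log2 fold change of -0.08 at each. Taken in either direction, that is near the share of all genes called at furan 2.0 (46.5%) and below it at 3-methylfuran 1.0 (43.6%). By direction, 24% of all genes were higher and 22.5% lower at furan 2.0. The lower calls of the list thus exceeded their share there, and the higher calls fell short. At 3-methylfuran 1.0 the shares were 21.2% higher and 22.5% lower. Acvr1, a type I BMP receptor, and Bmp2, a ligand, fell by 0.59 and by 0.81 at furan 2.0, did not pass there on library size (-0.19 and -0.41), and did not pass at 3-methylfuran 1.0. Tmprss6, the protease that cleaves hemojuvelin and so restrains Hamp, fell by 0.56 ± 0.08 and by 0.66 ± 0.08 (log2, SE, edgeR adjusted p = 3.55e-07 and 2.87e-08), and it passed on library size too (-0.19 and -0.41). Hjv, which encodes hemojuvelin, was at -0.07 and -0.19 and did not pass. With library size only this list had 7 higher and 1 lower at furan 2.0 and 5 higher and 1 lower at 3-methylfuran 1.0. Over all tested genes, 8678 of 12727 and 6081 of 11930 were called higher on that scale, larger shares than in the list. Of 8 tested genes of the IL-6 and STAT3 route, 2 were higher and 1 lower at furan 2.0 and 0 were higher and 2 lower at 3-methylfuran 1.0 (6 and 0, and 3 and 2, on library size), with medians of 0.21 and -0.05. Taken in either direction, the counts with TMM lie below the share of all genes called at each dose (46.5% and 43.6%). Osmr, the oncostatin M receptor, rose by 2.15 ± 0.41 at furan 2.0 and was at 0.44 at 3-methylfuran 1.0, where it did not pass with TMM but did on library size (0.68). Il6r and Il6st, the parts of the IL-6 receptor, fell by 0.85 and by 0.59 at 3-methylfuran 1.0, also on library size (-0.61 and -0.35), whereas Il6r was at 0.28 at furan 2.0 without passing, and at 0.67 and called on library size. Positive acute phase genes, which IL-6 raises in liver, were lower for 10 of 11 tested at furan 2.0 and for 9 of 11 at 3-methylfuran 1.0 (6 and 2 lower on library size), with medians of -0.58 and -0.34. Over all genes, 22.5% were lower at each of these doses with TMM. The acute phase list includes Cp, Hpx and Fgb, which other lists hold too.

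Erythroferrone, the red cell hormone that lowers Hamp, is encoded by Erfe, whose liver level was too low to test (means of 0.0406 CPM in furan 2.0 rats and 0.0619 CPM in controls, and 0.0114 CPM in 3-methylfuran 1.0 rats and 0.0258 CPM in controls). The summed level of the matched red cell markers was lower: 153 to 275 CPM at furan 2.0 against 242 to 492 CPM in controls, and 155 to 346 CPM at 3-methylfuran 1.0 against 230 to 642 CPM in controls. Of these markers, 0 were called higher and 5 of 6 lower at furan 2.0, and 0 higher and 3 of 5 lower at 3-methylfuran 1.0 (4 of 6 and 1 of 5 lower on library size), counting near-identical alpha-globin copies whose reads cannot be told apart. Over all genes, 22.5% were called lower at each of these doses with TMM. Slc4a1, the red cell anion exchanger, fell by 1.05 ± 0.16 and by 1.10 ± 0.20 (log2, SE), and passed on library size too (-0.68 and -0.85).

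Markers of some liver cell types also moved with the top doses, to be read beside the 46.5% and 43.6% of all genes called at furan 2.0 and 3-methylfuran 1.0. The counts for sinusoidal endothelium, macrophages, and lymphocytes and neutrophils lay below those shares. The summed level of 11 hepatocyte markers was 94294 to 149880 CPM at furan 2.0 against 157270 to 183470 CPM in controls, and 147540 to 194220 CPM at 3-methylfuran 1.0 against 178060 to 201940 CPM in controls. Of these markers, Alb made up most of the 3-methylfuran sums, with means of 122420 CPM at 1.0 and 146190 CPM in controls. At furan 2.0, 9 of 11 were called lower and 1 higher, and at 3-methylfuran 1.0, 7 lower and 2 higher (3 lower and 1 higher, and 3 lower and 3 higher, on library size). Cholangiocyte markers were higher for 7 of 9 tested and lower for 1 at furan 2.0, with summed levels of 41.5 to 102 CPM against 35.7 to 45.8 CPM in controls. At 3-methylfuran 1.0, 2 of 5 tested were higher and 1 lower, with summed levels of 41.7 to 57.1 CPM against 30.9 to 40.3 CPM in controls, without overlap (8 of 9 and 2 of 5 higher, 0 lower, on library size). Stellate cell markers were higher for 7 of 12 tested and lower for 1 at furan 2.0 and called for 0 of 11 at 3-methylfuran 1.0 (9 of 12 and 4 of 11 higher, 0 lower, on library size). Sinusoidal endothelium, the source of BMP6, had 3 of 13 tested markers lower at furan 2.0 and 2 of 13 at 3-methylfuran 1.0, and 0 higher (0 lower at either, and 2 higher at 3-methylfuran 1.0, on library size). Macrophage markers had 2 of 14 higher, Trem2 and Lyz2, and 0 lower at furan 2.0 and 0 of 13 called at 3-methylfuran 1.0 (9 and 3 higher on library size). Lymphocyte and neutrophil markers had 0 of 7 called at furan 2.0 and 1 of 5, Cd8a, higher at 3-methylfuran 1.0 (4 of 7 and 1 of 5 higher on library size). The part of these cell types in the changes of Hamp and the other members was not tested.

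Within dose groups, no gene followed Hamp from rat to rat past the threshold. After group means were removed, 0 of 12726 genes over 38 furan rats and 0 of 11929 over 32 3-methylfuran rats had an adjusted p under 0.05 for Pearson's r (permutation test within groups), while 7.43% and 12.3% had an unadjusted p under 0.05. Among the members, Tfr2 had r = 0.45 and rho = 0.41 in furan rats (permutation p = 0.00516, adjusted p = 0.558, r = 0.45 without the 2 rats farthest in Hamp), beside r = 0.05 in 3-methylfuran rats. Hfe had r = 0.52 and rho = 0.44 in 3-methylfuran rats (permutation p = 0.00349, adjusted p = 0.255, r = 0.36 without the 2 farthest), beside r = 0.17 in furan rats. Cp had r = 0.38 in furan rats (permutation p = 0.0237), beside 0.11 in 3-methylfuran rats. Id1 and Tfrc, which moved opposite to Hamp with dose, had r = 0.38 and 0.34 in 3-methylfuran rats (permutation p = 0.0405 and 0.0493), beside -0.04 and 0.02 in furan rats. The 6 genes most like Hamp by the mean r of both experiments, of 10273, were Cfi (0.55), Cdo1 (0.54), Tef (0.54), Mgst1 (0.52), Rer1 (0.52) and Arpc5l (0.51), and the 2 most opposite were Vps35l (-0.55) and Slc6a6 (-0.53). These values share each rat's library and are given as a description.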

How the data were processed

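Liver mRNA libraries of 70 rats were sequenced. Per the submitters' processing notes, the tools were featureCounts 2.0.0, STAR 2.7.1a and DESeq2 1.26.0 with build Rnor_6.0; no source used here gives the annotation release or strand setting. Integer counts per gene and run were deposited by the authors. The authors' deposited comparison tables give a signed fold change for furan (a unit other than a plain ratio: a decrease is written as a negative reciprocal), a plain ratio for 3-methylfuran, and an adjusted p-value for both. Counts of a rat's runs (2 for furan, 3 for 3-methylfuran) were summed. Runs of a rat differed by little more than counting noise (chi-square per degree of freedom 0.985 to 1.07 over genes with at least 20 counts), and rats by at least 6.15. Totals were 11.4 to 27.7 M counts per furan rat and 11.1 to 50.0 M per 3-methylfuran rat. The labels do not tell the controls of the experiments apart, and these were assigned by the number in the sample title.

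Tests used edgeR 4.0.16 in R 4.3.3: filterByExpr, TMM, quasi-likelihood F test (robust), 1 fit per experiment, Benjamini-Hochberg over all genes, called at adjusted p under 0.05. The SE is the log2 fold change over the square root of F. Correlations used log2 CPM (prior count 2) and 100000 permutations within groups. Alternatives were limma 3.58.1 voom, DESeq2 1.42.0, other scalings, no filter, single runs, fits of 1 dose and its controls, and fits without each rat. On simulated counts, 86.0% (furan 2.0) and 92.9% (3-methylfuran 1.0) of genes changed by 1 on the log2 scale were recovered, and 58.2% in each of those changed by 0.5.

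The 10 genes, the 16 lists (191 symbols, 19 unmatched, among them Fth1, Hmox1, Hp and Smad1) and the rule for named genes (all members, the 6 genes most and 2 least like Hamp, and up to 4 called genes of a list by size of change) were chosen with earlier results of these data known. Neighbouring-dose contrasts, values relative to hepatocyte markers and list calls under other scalings were added after seeing the data.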

Additional observations from a re-analysis of the deposited data

Results flagged for a closer look

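In all, 7 values stood apart from the other rats of their group by Dixon's test (a gap to the nearest rat that is large beside the group's range), of 81 sets of values of a gene in a group, where chance flags about 1 in 20. Rat ME086_L had 387.7 CPM of Hamp at furan 2.0, the next rat 272.6, and it also had the highest Tfr2 and Cp of its group. Rat ME587L had 475.2 CPM of Hamp at 3-methylfuran 1.0, the next rat 237.3. Rat MA026_L had 604.5 CPM of Hamp at furan 0.03, in the group whose Hamp varied least. Rat ME082_L had 3.632 CPM of Bmp6 at furan 2.0. Rat MA022_L had 3.15 CPM of Id1 at furan 0.03. Rat MD071_L had 3774 CPM of Cp at furan 0.5. Rat MD072_L had the lowest Slc11a2 at furan 0.5, 21.19 CPM, beside 23.62 in the next rat.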

How the results depend on the processing

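Hamp stayed lower and past the threshold at both top doses in every fit run, at -1.55 to -1.25 (furan 2.0) and -1.40 to -1.03 (3-methylfuran 1.0) when each rat was left out and down to -1.02 and -0.90 on library size only. That scaling changed most: genes called at furan 2.0 went to 9451 beside 5923, members called to 5 and 4 beside 8 and 8, and Slc11a2 (0.055 at furan 2.0, 0.020 at 3-methylfuran 1.0) and Tf (0.086 at 3-methylfuran 1.0) turned positive. Its dose trends turned to 0.012 for Hfe and 0.034 for Slc11a2 (furan), and to 0.013 for Slc11a2 and 0.12 for Tf (3-methylfuran), the last with an adjusted p of 0.0132. Run 2 alone left 5 members called at 3-methylfuran 1.0, with Bmp6 and Id1 under the filter.

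Low-dose calls were unsteady. At furan 0.03 (9 genes) there were 1 without the filter, 2 with run 1, 0 with voom or with only that dose and its controls, 49 with DESeq2 and 0 to 62 without each rat. Without the filter, furan 0.12 (247) had 151 and furan 0.5 (402) had 249, and without each rat they had 105 to 376 and 262 to 428. At 3-methylfuran 0.02 (4) there were 0 with either of runs 1 and 2 or only that dose, 2 with voom, 18 with DESeq2 and 1 to 11 without each rat. At 0.075 (163) there were 106 without the filter, 74 with run 2, 95 with only that dose, 266 with DESeq2 and 103 to 193 without each rat. Members called at furan 0.5 were 0, and 1 (Slc11a2) with DESeq2 size factors, run 2 or DESeq2, and 0 to 1 without each rat. Hamp at 3-methylfuran 0.02 ran from -0.20 to 0.10 without each rat. The cause of these shifts was not tested.

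No paired analysis was possible because rat numbers are not shared between groups. Bmp6 and Id1 rest on few counts per rat, and an estimate near 0 there does not show a lack of change. Library kit and compound cannot be told apart. No source used here says whether rats shared preparation days.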

Other observations

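Single iron storage and heme genes, outside the hepcidin route, moved with the top doses, while the counts over several of their lists lay at or below the share of all genes called (46.5% at furan 2.0 and 43.6% at 3-methylfuran 1.0), as for storage, heme synthesis and iron-sulfur genes at furan 2.0 and other transport at 3-methylfuran 1.0. Ftl1, the ferritin light chain, rose by 0.72 ± 0.09 at furan 2.0 and by 0.58 ± 0.12 at 3-methylfuran 1.0 (log2, SE, edgeR), but near-identical copies of it exist, so its count is uncertain. Of the 6 tested genes of storage and iron sensing, 1 was higher and 1 lower at furan 2.0 and 3 were higher and 0 lower at 3-methylfuran 1.0 (5 and 6 higher on library size). Of the genes of other iron transport, 4 of 12 were higher and 6 lower at furan 2.0 and 1 of 11 higher and 3 lower at 3-methylfuran 1.0 (6 and 2, and 2 and 0, on library size). Heph, a ferroxidase related to Cp, rose by 1.37 and by 0.92. Its level was low, at 0.511 to 1.44 CPM at 3-methylfuran 1.0 against 0.144 to 1.04 CPM in controls, with overlap. Steap3, an endosomal ferrireductase, fell by 0.63 and by 0.52 but did not pass on library size (-0.25 and -0.27).

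Among 10 tested genes of heme scavenging and breakdown, 3 were higher and 5 lower at furan 2.0 and 2 higher and 5 lower at 3-methylfuran 1.0 (6 and 3, and 3 and 2, on library size). Hpx, the plasma heme carrier hemopexin, fell by 0.76 ± 0.10 and by 0.34 ± 0.08, and Slc46a1, a heme and folate importer, fell by 0.72 and by 0.67. On library size Slc46a1 passed with each (-0.35 and -0.42) and Hpx with furan (-0.39) but not with 3-methylfuran (-0.10). Slc48a1, which moves heme out of lysosomes, rose by 0.77 ± 0.09 and by 0.55 ± 0.07, and Abcg2, an exporter of heme and drugs, rose by 0.86 and by 1.13. Tspo, an outer mitochondrial membrane protein that binds porphyrins, rose by 1.71 ± 0.16 and by 0.91 ± 0.19. Alad and Fech, enzymes of heme synthesis, fell by 0.35 each at furan 2.0 and by 0.27 and 0.22 at 3-methylfuran 1.0. Of 10 tested heme synthesis genes, 1 was higher and 3 lower at furan 2.0 and 2 higher and 3 lower at 3-methylfuran 1.0. With library size only, heme synthesis had 7 higher and 0 lower at furan 2.0 and 5 higher and 0 lower at 3-methylfuran 1.0, so the falls of Alad and Fech are relative to the bulk of genes. Iron-sulfur cluster genes had 1 higher and 2 lower at furan 2.0 and 1 higher and 4 lower of 13 at 3-methylfuran 1.0 (10 higher and 0 lower, and 7 higher and 1 lower, on library size).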
